A study of Ostrinia furnacalis with 30 samples.

Results

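The 5th instar larva and the adult of the Asian corn borer, the moth Ostrinia furnacalis, were compared across the whole transcriptome. Every gene model with a value of at least 1 FPKM (fragments scaled by gene length and library size) in at least 3 of the 6 libraries was taken, which gave 11993 of the 20852 gene models in the table. RNA was sequenced from whole wild-type insects in 3 libraries per stage, and each library came from a pool of 6 insects. The larvae were mature 5th instars on an artificial diet and not on a plant. The adults were fed sucrose solution, and females and males were mixed in equal numbers. Neither stage was treated, and the colony was kept under the same insectary conditions throughout. The labels do not say whether the pools came from separate cohorts, so the p-values measure the spread between these pools only.

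The larva of this moth is the feeding stage. It bores into maize, digests plant tissue, spins silk and lays down a new soft cuticle at each molt. Metamorphosis replaces most of this body, and the adult flies, finds a mate by scent and lays eggs while it takes up little more than sugar and water. A 5th instar is the last larval instar, in which the fat body loads the blood with storage proteins for the pupa and the silk glands fill before spinning. In whole animals, a lower value can mean fewer cells of a type or less RNA per cell, and these cannot be told apart.

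Between 14330440 and 17083478 fragments could be recovered per library. Log2 values correlated at 0.931 to 0.956 between larval libraries, at 0.946 to 0.961 between adult libraries and at 0.543 to 0.597 across the stages. The 10 genes with most fragments took 19.3% to 32.9% of the fragments in the larva and 26.7% to 39.0% in the adult. The markers went with the labels: the summed level of 3 arylphorin models was 932 to 9759 FPKM in the larva and 0.340 to 1.73 FPKM in the adult, vitellogenin was at 404 to 714 FPKM in the adult against at most 0.173 FPKM in the larva, and flightin was at 724 to 1216 against 25.5 to 130 FPKM. No gene model is named sericin or intestinal mucin. Adult replicate 3 stood apart from the other adult pools, since it held 1 fragment of 10 chorion gene models that had 13932 and 13771 fragments in adult replicates 1 and 2. Tektin and axonemal dynein, markers of sperm tails, were found in both stages, with 35.0 to 65.3 FPKM summed over 8 tektin models in the adult and 36.2 to 47.6 FPKM in the larva.

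Of the 11993 gene models tested, 2959 (24.7%) were called higher in the larva and 2431 (20.3%) higher in the adult, so that 44.9% were called in either direction. Calls rest on limma with p-values adjusted by Benjamini-Hochberg (under 0.05) and on a difference of 1 or more, up or down, in log2(FPKM + 1), a scale that understates the change of low genes. Positive values are higher in the larva. In 64.8% of the gene models tested the larval and adult libraries did not overlap. The median size of a called difference was 1.74 among larva-high and 1.71 among adult-high gene models. Differences of at least 5 on the log2 scale were carried by 150 larva-high and 242 adult-high gene models, and those of at least 8 by 35 and 42.

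**Figure D1:**
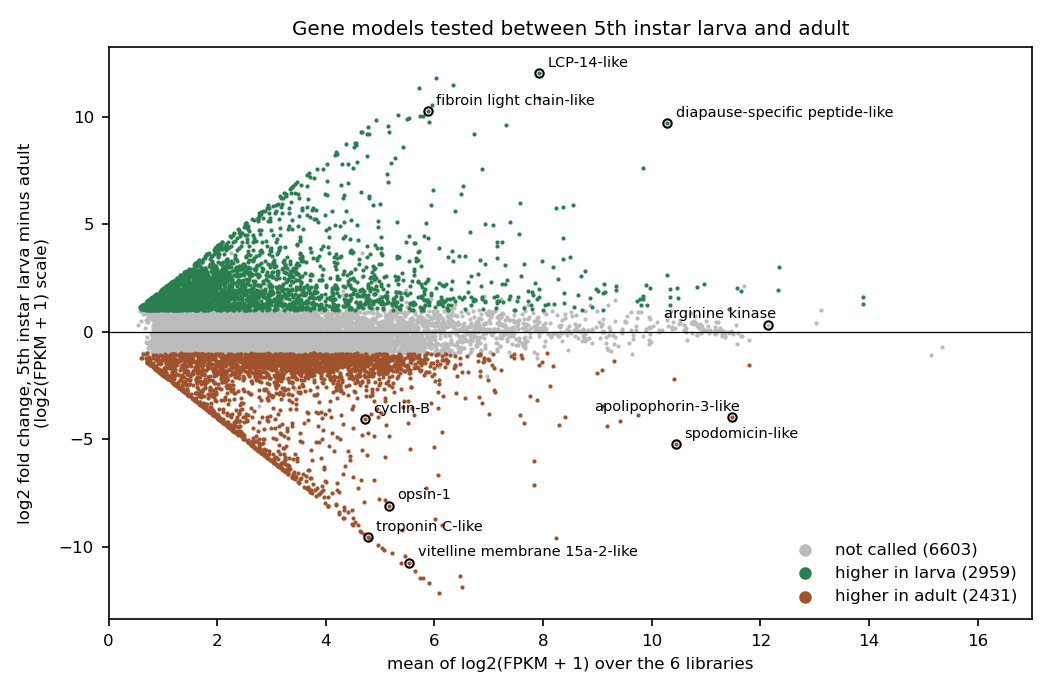
Each point is 1 of the 11993 gene models tested, with its mean log2(FPKM + 1) over the 6 libraries on the x axis and its log2 fold change, larva minus adult, on the y axis. Green points were called higher in the larva (2959), brown points higher in the adult (2431) and grey points were not called (6603). Both stages hold genes that differ by over 8 on the log2 scale, while arginine kinase lies near 0 at a high level.

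The filter bears on these counts. In 7562 gene models all 6 libraries reached 1 FPKM. Another 1401 passed with all 3 larval and no adult libraries, of which 1211 were called higher in the larva, and 734 passed with all 3 adult and no larval libraries, of which 673 were called higher in the adult. Such gene models had to differ, so their number is a description. Of those that passed, 2439 reached 1 FPKM in exactly 3 libraries. Just outside the filter, 1173 reached it in exactly 2 libraries and were not tested, and in 577 of them both were larval and in 392 both were adult. Of the 8859 gene models not tested, 1977 were listed at 0 in all 6 libraries. Where 1 library was left out, 2 of the libraries left had to reach 1 FPKM, so that more gene models could enter.

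Gene models with a protein name leaned slightly more to the larva than all models tested, and those without one did not. Of 8393 tested models with a protein name, 2209 (26.3%) were called higher in the larva and 1472 (17.5%) higher in the adult, beside 24.7% and 20.3% of all models tested. Their median log2 fold change was 0.14, beside 0.06 for all models tested. Scaling by recovered totals moved the latter median to -0.08, so the lean is small beside the effect of scaling. The 2321 tested models named only as uncharacterized held 546 (23.5%) larva-high and 578 (24.9%) adult-high calls. Among 285 long noncoding RNAs 54 (18.9%) and 68 (23.9%) were called, and among 904 models that the authors added to the annotation 122 (13.5%) and 302 (33.4%). The latter had a median of -0.57.

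**Figure D2:**
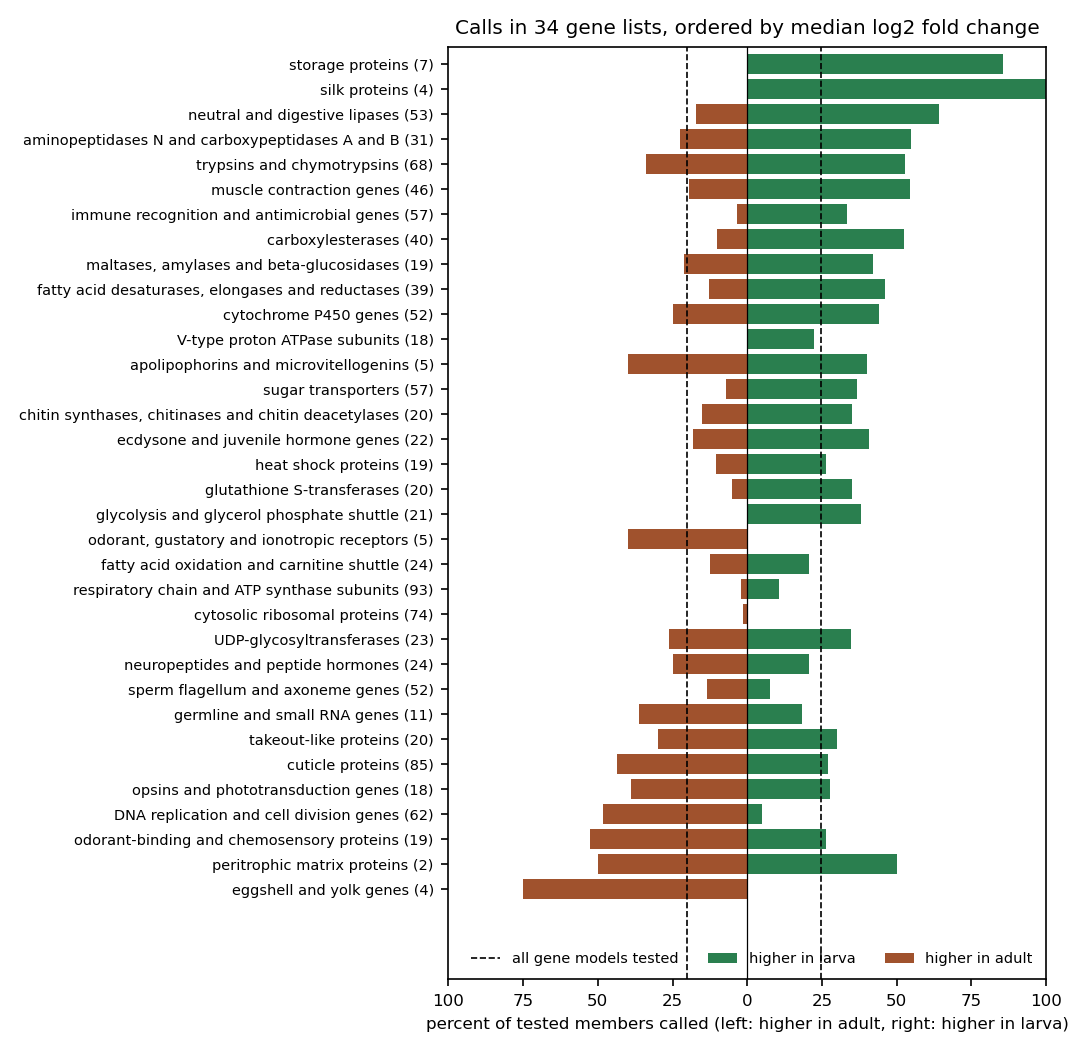
Bars give the percent of tested members of 34 gene lists called higher in the larva (right, green) or higher in the adult (left, brown), with the number tested in parentheses and the lists in order of their median log2 fold change. Dashed lines mark the shares over all gene models tested, 24.7% and 20.3%. Silk genes, storage proteins and lipases reach farthest to the right, and eggshell genes and odorant-binding proteins farthest to the left.

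The feeding and digestive genes come first. Counts in each list stand beside the shares of all models tested, 24.7% higher in the larva and 20.3% higher in the adult. Trypsins and chymotrypsins, serine proteases listed here by name alone, split into a larval and an adult set. The names are those of proteases of the insect midgut, but not every member need act there. Of 100 members 68 were tested, and 36 were called higher in the larva and 23 higher in the adult (median 1.46). Only 9 tested members were not called. Of the tested members, 24 met the filter through the larva alone and 22 through the adult alone, and those had to differ. Trypsin, alkaline C-like (LOC114351937) had 1834, 2970.1 and 1001 FPKM in the larva and 1.19, 0.571 and 1.44 FPKM in the adult. Every larval pool was high and every adult pool near 1 FPKM, a difference of 9.76 (SE 0.40, limma adjusted p = 5.63e-06), and in midguts of 3rd instars the mean was 49150.4 ± 11371 FPKM (SD over 3 libraries). Collagenase-like (LOC114358766), a serine protease of the same fold, had 1052, 1521 and 574 FPKM in the larva and 4.45, 13.7 and 7.55 FPKM in the adult, and its difference was 6.79 (SE 0.46, limma adjusted p = 5.50e-05). On the adult side stood a trypsin-like gene (LOC114361047) at 0, 0.0859 and 0.265 FPKM in the larva and 359.5, 227 and 318 FPKM in the adult. Its adult pools lay close together, and the difference was -8.06 (SE 0.24, limma adjusted p = 1.97e-06). In midguts of 3rd instars its mean was 0 FPKM, and no adult tissue was sampled. A further adult gene, picked out after its values were seen, is trypsin CFT-1-like (LOC114351943), with 1.39, 3.20 and 1.02 FPKM in the larva and 158, 389.6 and 544 FPKM in the adult and a difference of -6.89. Midguts of 3rd instars held 41.5 ± 20.2 FPKM of it.

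Aminopeptidases N and carboxypeptidases A and B, which trim peptides from their ends in the gut, had 31 of 38 members tested, with 17 higher in the larva and 7 higher in the adult (median 1.48), and 12 met the filter through the larva alone and 5 through the adult alone. Carboxypeptidase B-like (LOC114359080) had 17.6, 50.1 and 12.6 FPKM in the larva and 0.0906, 0.131 and 0.186 FPKM in the adult, with a difference of 4.37 (SE 0.47, limma adjusted p = 0.000366). Zinc carboxypeptidase A 1-like (LOC114362868) was its opposite, with 0, 0.225 and 0 FPKM in the larva and 43.9, 18.4 and 24.7 FPKM in the adult. A total of 3 fragments was seen in the larva, so that the ratio of adult to larva was 387, with an exact Poisson 95% interval of 132 to 1875 that covers counting error only.

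Lipases, listed by name, had the largest share of larval calls among the feeding lists. Of 84 members 53 were tested, 34 were called higher in the larva and 9 higher in the adult, with a median of 2.33, and 24 met the filter through the larva alone and 6 through the adult alone. The share of all FPKM in the list overlapped between the stages, with 0.174% to 0.227% in the larva and 0.0479% to 0.199% in the adult. Lipase 1-like (LOC114352108) had 130, 420 and 563 FPKM in the larva and 0.105, 0 and 0 FPKM in the adult. The larval pools were between 130 and 563 FPKM. In 3rd instar silk glands the mean was 6886 ± 1534 FPKM, against 12.7 ± 11.8 FPKM in midguts. Lipase 3-like (LOC114359148) ran the other way, with 0.0836, 0 and 0.164 FPKM in the larva and 1184, 765 and 176 FPKM in the adult, a difference of -8.97 (SE 0.64, limma adjusted p = 6.88e-05). Adult replicate 3 was the lowest adult pool and was still far above all larval pools. Midguts of 3rd instars held 0.105 ± 0.102 FPKM of LOC114359148. A total of 11 tested gene models carry the name lipase 3-like, of which 7 were called higher in the larva and 3 higher in the adult, with differences from -8.97 to 6.95.

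Maltases, amylases and beta-glucosidases, which cleave sugars, held calls in both directions among 19 tested of 29 members, 8 larval and 4 adult (median 1.03). The filter was met by 2 through the larva alone and by 1 through the adult alone. Myrosinase 1-like (LOC114354119), named after the plant enzyme that cleaves mustard oil glucosides, had 26.4, 41.5 and 60.0 FPKM in the larva and 0.0341, 0.0986 and 0.187 FPKM in the adult and a difference of 5.23 (SE 0.32, limma adjusted p = 3.37e-05). Maltase A1-like (LOC114354275), named after an enzyme that releases glucose, had 0.419, 0.598 and 1.07 FPKM in the larva and 219, 508 and 605 FPKM in the adult. The adult pools were above all larval pools by more than 200 FPKM, with a difference of -7.93 (SE 0.39, limma adjusted p = 1.33e-05). Summed over the list, the share of all FPKM was 0.0483% to 0.0496% in the larva and 0.0600% to 0.134% in the adult, although the called members were mostly larval.

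Both tested peritrophins, proteins of the chitin sleeve that lines the midgut, were called, in opposite directions. Of the 2, 1 met the filter through the larva alone and 1 through the adult alone, so both had to differ. Peritrophin-1-like LOC114352546 had 0.0701, 0 and 0 FPKM in the larva and 15.9, 181 and 269.8 FPKM in the adult, with a difference of -6.52 (SE 0.95, limma adjusted p = 0.00121), although the adult pools were spread from 15.9 to 270 FPKM. Peritrophin-1-like LOC114360160 had 17.5, 8.92 and 2.73 FPKM in the larva and 0.0532, 0.87 and 0.655 FPKM in the adult, and its difference was 2.57 (SE 0.57, limma adjusted p = 0.00694). That call was lost when all stage libraries were fitted together, at a limma adjusted p of 0.066.

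Sugar transporters, which move trehalose and glucose across membranes, had 57 of 100 members tested, 21 of them higher in the larva and 4 higher in the adult (median 0.70), and 8 met the filter through the larva alone and 1 through the adult alone. Tret1-2 (LOC114353435) had 8.17, 6.79 and 24.5 FPKM in the larva and 0, 0 and 0 FPKM in the adult. No fragment was seen in any adult library, and with a floor of 3 fragments per library the larval level was at least 107-fold higher. The silk gland of the 3rd instar held 267 ± 55.7 FPKM. A Tret1-like gene (LOC114359726) was on the adult side, with 7.58, 1.22 and 1.17 FPKM in the larva and 27.8, 69.8 and 45.5 FPKM in the adult and a difference of -3.72 (SE 0.59, limma adjusted p = 0.00172).

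V-type proton ATPase subunits build the pump that charges the apical membrane of midgut and other epithelia. Among 18 tested of 20 members 4 (22.2%) were called higher in the larva and none higher in the adult (median 0.77). The larval share was near the 24.7% of all models tested. Subunit B (LOC114361397) had 41.6, 121 and 106 FPKM in the larva and 7.75, 3.17 and 4.47 FPKM in the adult, a difference of 3.82 (SE 0.46, limma adjusted p = 0.000537). The other called members were the 21 kDa proteolipid (LOC114358373) at 2.80, a 116 kDa subunit a-like model (LOC114352936) at 1.64 and subunit d (LOC114354549) at 1.26. Catalytic subunit A (LOC114349659) had 99.3, 231 and 203 FPKM in the larva and 85.1, 90.3 and 113 FPKM in the adult, with a difference of 0.80 that was not called with all pools and was called without larval replicate 1. The 16 kDa proteolipid (LOC114364479) also was not called at a difference of 0.59. All of these subunits but B and the 16 kDa proteolipid were chosen after their values were seen. Larval replicate 1 was the lowest larval pool in all 18 tested subunits, and without it 11 members were called higher in the larva.

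Detoxification enzymes act on plant toxins and pesticides and also on hormones and odorants. Cytochrome P450 genes had 52 of 82 members tested, with 23 higher in the larva and 13 higher in the adult (median 0.84), and 11 met the filter through the larva alone and 7 through the adult alone. P450 4C1-like (LOC114354146) had 12.8, 41.7 and 33.7 FPKM in the larva and 0.0352, 0 and 0.626 FPKM in the adult and a difference of 4.52 (SE 0.46, limma adjusted p = 0.000273). CYP12A2-like (LOC114350695) was the adult extreme, with 0, 0.473 and 0.054 FPKM in the larva and 374, 520 and 308 FPKM in the adult and a difference of -8.40 (SE 0.27, limma adjusted p = 2.49e-06), and embryos also held it at 542 ± 95.9 FPKM. The P450 share of all FPKM ran against the count, with 0.0676% to 0.0970% in the larva and 0.130% to 0.186% in the adult. P450 4g15 (LOC114365112), a member of the insect family that makes cuticular hydrocarbons, had 98.9, 101 and 95.9 FPKM in the larva and 71.8, 47.5 and 130.1 FPKM in the adult, and the stages overlapped at a difference of 0.36 (SE 0.35, limma adjusted p = 0.4).

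UDP-glycosyltransferases, which attach sugars to small molecules, did not lean to a stage: 8 of 23 tested members were larval and 6 adult, and the median of 0.01 changed sign under 7 of 15 alternative settings. The filter was met by 3 through the larva alone and by 1 through the adult alone. UDP-glucuronosyltransferase 2B20-like (LOC114356398) had 25.1, 10.9 and 185 FPKM in the larva and 0, 0 and 0.148 FPKM in the adult. The larval pools were spread widely, with a difference of 5.21 (SE 0.90, limma adjusted p = 0.00247), and 3rd instar silk glands held 3189 ± 1201 FPKM. Glutathione S-transferases had 7 larval calls and 1 adult call among 20 tested (median 0.52), and 3 met the filter through the larva alone. The adult one was glutathione S-transferase 1-like (LOC114363146), with 7.36, 12.4 and 9.75 FPKM in the larva and 26.1, 34.3 and 33.4 FPKM in the adult and a difference of -1.59 (SE 0.24, limma adjusted p = 0.00141). Without larval replicate 3 or adult replicate 1 the adult count was 2. Carboxylesterases leaned to the larva, with 21 of 40 tested members called there and 4 in the adult (median 1.06). Of those tested, 12 met the filter through the larva alone and 2 through the adult alone. Juvenile hormone esterase-like (LOC114365528), named after the enzyme that breaks down juvenile hormone, had 194, 325 and 246 FPKM in the larva and 9.05, 5.52 and 0 FPKM in the adult. No fragment was seen in adult replicate 3, and the difference was 5.96 (SE 0.80, limma adjusted p = 0.00084). The share of all FPKM in carboxylesterases did not overlap between the stages, with 0.0835% to 0.107% in the larva and 0.0282% to 0.0291% in the adult.

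Storage proteins, hexamerins that the larval fat body secretes and that feed the building of the adult, showed the largest median of any list at 9.57. Of 7 members, all tested, 6 were called higher in the larva and none higher in the adult, and 3 met the filter through the larva alone. Acidic juvenile hormone-suppressible protein 1-like (LOC114359098) had 977, 1662 and 3535 FPKM in the larva and 0.284, 0.218 and 2.06 FPKM in the adult, a difference of 10.05 (SE 0.54, limma adjusted p = 1.84e-05), and the 3rd instar fat body held 39643 ± 19198 FPKM. Arylphorin subunit alpha-like genes LOC114359093 and LOC114353553 went together: the former had 412, 1330.2 and 4916 FPKM in the larva and 0.679, 0.109 and 0.659 FPKM in the adult and the latter 482, 1329 and 4826 FPKM in the larva and 0.253, 0.189 and 1.04 FPKM in the adult. Larval replicate 3 was far above larval replicate 1 in both. Copies of one name can share fragments, so the division between them is uncertain. The one member not called, a basic juvenile hormone-suppressible protein (LOC114359673, picked out for that reason), had 10.2, 21.7 and 7.51 FPKM in the larva and 11.1, 13.5 and 18.6 FPKM in the adult.

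Silk genes were spread as widely over the larval pools, in another order. All 4 tested of 6 members were called higher in the larva (median 5.53). Fibroin light chain-like (LOC114360339), which links to the heavy chain of the silk thread, had 2116, 484 and 8642 FPKM in the larva and 1.42, 0 and 0.936 FPKM in the adult with a difference of 10.27 (SE 0.95, limma adjusted p = 0.000202), and 3rd instar silk glands held 127859 ± 15172 FPKM. Larval replicate 2 was the lowest in fibroin light chain, in fibrohexamerin-like (LOC114362712, chosen after its values were seen, 539, 48.2 and 1177 FPKM) and in seroin-like (LOC114363599, 530, 132 and 1441 FPKM). The seroin call was lost without adult replicate 1 or 3, at a limma adjusted p of up to 0.0607. Without adult replicate 3 the fibroin heavy chain-like model described with the eggshell was the 1 silk gene called higher in the adult. In that fit 2 libraries at 1 FPKM were enough for a model to be tested. A gene named after a bacterial platelet binding protein, GspB-like (LOC114366142; NW_021130779.1, 36979 to 38384 on the plus strand of the genome assembly ASM419383v1), had 4703, 1268 and 13989.9 FPKM in the larva and 0.561, 0.315 and 0.704 FPKM in the adult and was at 166473 ± 30862 FPKM in 3rd instar silk glands. Its larval pools ranked as those of the silk genes did.

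Cuticle proteins held both the largest larval differences and many adult ones. Of 154 members 85 were tested, 23 were called higher in the larva and 37 higher in the adult, and the median was -0.62, with 8 that met the filter through the larva alone and 11 through the adult alone. Larval cuticle protein LCP-14-like (LOC114358755; NW_021134344.1, 487168 to 492287) had 4669, 28603 and 30096 FPKM in the larva and 1.61, 0.966 and 9.34 FPKM in the adult, with a difference of 12.05 (SE 0.88, limma adjusted p = 7.23e-05), the largest of all larva-high differences. Its neighbour LCP-17-like (LOC114358754; NW_021134344.1, 498011 to 500522) had 1245, 6228 and 7880.4 FPKM in the larva and 0, 0 and 0.292 FPKM in the adult. With 2 fragments in the adult, the ratio of larva to adult was 52652, with a Poisson interval of 14576 to 434768. Larval cuticle protein 1-like (LOC114364505) had 2255, 22373 and 23158 FPKM in the larva and 3.65, 4.11 and 6.21 FPKM in the adult. Larval replicate 1 was far below the other larval pools for this gene, as it was for cuticle protein 16.5-like LOC114357688, with 522, 4329 and 8503 FPKM in the larva and 0.098, 0 and 0 FPKM in the adult.

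On the adult side, cuticle protein 16.5-like LOC114357722 had 0.187, 16.2 and 0.458 FPKM in the larva and 2543, 1204 and 1296 FPKM in the adult, a difference of -9.00 (SE 0.97, limma adjusted p = 0.000362), and the pupa held 2448 ± 1506 FPKM. The adult-high cuticle gene with the highest adult level, cuticle protein 1-like (LOC114362183, chosen after its values were seen), had 6.49, 174 and 4.50 FPKM in the larva and 3224, 2484 and 2480 FPKM in the adult and 3539 ± 1897 FPKM in the pupa, with larval replicate 2 far above the other larval pools. A total of 9 tested models carry the name cuticle protein 16.5-like, 4 called in each direction, with differences from -9.00 to 11.34. The names larval and pupal in the annotation did not set the direction, since larval cuticle protein A2B-like (LOC114351524) was called higher in the adult at -4.09 and pupal cuticle protein 36a-like (LOC114366553) higher in the larva at 4.36, both picked out after their values were seen. The share of all FPKM in the list was 1.70%, 7.57% and 8.92% in the larva and 1.52%, 1.13% and 0.917% in the adult.

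**Figure D3:**
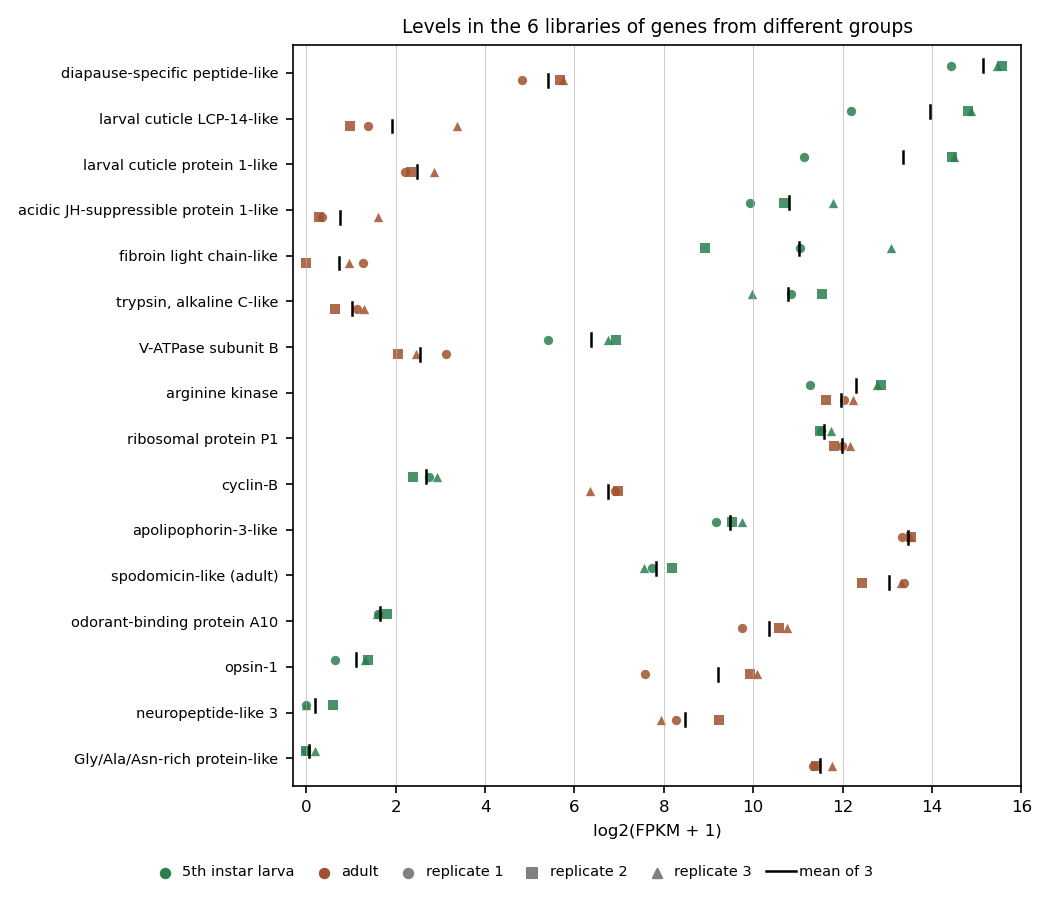
Levels of 16 genes from different groups in the 6 libraries, as log2(FPKM + 1) on the x axis, with green for the larva and brown for the adult, a symbol for each replicate and a bar at the mean of the 3 log2 values. The stages overlap in arginine kinase and in no other of these genes. Among larval replicates LCP-14-like runs from 4669 to 30096 FPKM and fibroin light chain-like from 484 to 8642 FPKM.

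Chitin enzymes, which build and break the polymer of the cuticle, had 7 larval and 3 adult calls among 20 tested (median 0.58). The filter was met by 4 through the larva alone and by 1 through the adult alone, and those had to differ. Probable chitinase 2 (LOC114366246) had 16.8, 69.1 and 74.8 FPKM in the larva and 0.171, 0.0825 and 0.176 FPKM in the adult and a difference of 5.32 (SE 0.54, limma adjusted p = 0.000295). Chitinase-3-like protein 2 (LOC114366242) had 0, 0 and 0 FPKM in the larva and 5.66, 6.64 and 7.92 FPKM in the adult, and as no fragment was seen in the larva it was at least 63.8-fold higher in the adult. The most abundant member, chitinase-like protein EN03 (LOC114349903), named after the imaginal disc growth factors that lack chitinase activity, had 519, 568 and 509 FPKM in the larva and 766, 854 and 896 FPKM in the adult and was not called at -0.65.

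Lipid carriers separated sharply by member, with 2 larval and 2 adult calls among 5 tested (median 0.72). Apolipophorin-3-like (LOC114355821), the exchangeable lipoprotein that lets the blood carry more fat in flight, had 574, 741 and 862 FPKM in the larva and 10376, 11770.4 and 11715 FPKM in the adult. The lowest adult pool was far above the highest larval pool, with a difference of -3.98 (SE 0.23, limma adjusted p = 2.77e-05). Apolipophorins-like (LOC114366658), named after the large lipophorin itself, differed less, with 26.9, 26.4 and 51.9 FPKM in the larva and 86.6, 81.5 and 71.8 FPKM in the adult and a difference of -1.23 (SE 0.29, limma adjusted p = 0.00838). Both larval calls were microvitellogenin-like, named after a yolk protein of other moths, LOC114365762 at 1.91 and LOC114365729 (chosen after its values were seen) at 1.15, and without larval replicate 2 the larval count was 1. The list took 1.39% to 1.83% of all FPKM in the adult and 0.0741% to 0.0938% in the larva.

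Small secreted peptides named after diapausin and spodomicin fell on both sides. Diapause-specific peptide-like (LOC114359322), of the diapausin family first described in a leaf beetle, was among the genes with the highest larval levels, with 22109, 48295 and 44782 FPKM in the larva and 27.5, 50.5 and 52.6 FPKM in the adult. Its difference was 9.73 (SE 0.39, limma adjusted p = 5.42e-06), and the 3rd instar fat body held 23303 ± 15797 FPKM. Spodomicin-like LOC114359321, named after an antimicrobial peptide of another moth, followed it with 7462, 18285 and 15587 FPKM in the larva and 55.2, 61.6 and 79.4 FPKM in the adult and a difference of 7.61 (SE 0.36, limma adjusted p = 1.07e-05). Another spodomicin-like gene, LOC114351262, had 213, 292 and 187 FPKM in the larva and 10642, 5542 and 10200.5 FPKM in the adult and a difference of -5.21 (SE 0.32, limma adjusted p = 3.44e-05). Of 5 tested models of that name, 4 were called higher in the larva and 1 higher in the adult.

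Muscle genes split between a larval majority and a small adult set. Of 53 members 46 were tested, 25 were called higher in the larva and 9 higher in the adult (median 1.31). The filter was met by 1 through the larva alone and by 4 through the adult alone, and those had to differ. Actin, muscle (LOC114358245) had 7261, 23520.2 and 19276 FPKM in the larva and 1738, 1493 and 2276 FPKM in the adult, a difference of 3.04 (SE 0.46, limma adjusted p = 0.00142). Myosin heavy chain (LOC114358802), the motor of the thick filament, had 994, 3057 and 2658 FPKM in the larva and 448, 382 and 702 FPKM in the adult, with a difference of 2.02, and troponin T (LOC114361371), troponin I (LOC114362320) and tropomyosin-1 (LOC114356472), the regulators of the thin filament, lay at 2.23, 2.07 and 1.99. The muscle genes in these sentences and down to flightin were picked out after their values were seen, apart from actin, muscle and the troponin C-like gene LOC114354105.

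The adult set held other copies of the same parts, chosen after their values were seen except for LOC114354105. Actin, muscle-type A2 (LOC114366695) had 2.21, 5.78 and 3.42 FPKM in the larva and 547, 645 and 1019.9 FPKM in the adult, a difference of -7.28 (SE 0.34, limma adjusted p = 1.07e-05). Troponin C-like LOC114354105, the calcium sensor of the thin filament, had 0, 0 and 0 FPKM in the larva and 401, 1109.7 and 936 FPKM in the adult. No larval fragment was seen, which puts the adult at least 2857-fold higher. A further troponin C-like gene (LOC114354116) had 50.2, 21.4 and 19.3 FPKM in the larva and 2094, 1994 and 1465 FPKM in the adult, while troponin C-like LOC114356629 ran the other way, at 2711, 3612 and 3125 FPKM in the larva and 536, 408 and 553 FPKM in the adult. Titin (LOC114358254) and titin-like (LOC114350359), named after the giant elastic protein of the sarcomere, were higher in the adult at -5.68 and -5.70, whereas titin LOC114351802 was higher in the larva at 2.91. Flightin (LOC114365033), a myosin-binding protein needed for flight muscle in Drosophila, had 26.3, 130.2 and 25.5 FPKM in the larva and 724, 752 and 1216 FPKM in the adult, with a difference of -4.26 (SE 0.62, limma adjusted p = 0.00116).

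**Figure D4:**
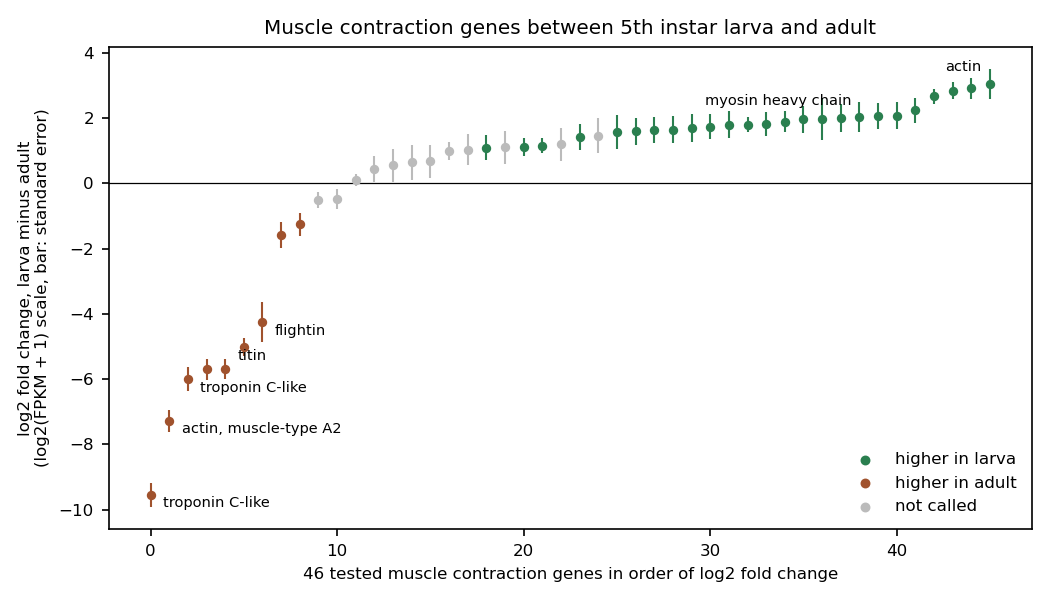
The 46 tested muscle contraction genes in order of their log2 fold change, larva minus adult, with a bar of 1 standard error. Green points were called higher in the larva (25), brown points higher in the adult (9) and grey points were not called. Troponin C-like, actin A2, titin and flightin lie between -9.55 and -4.26 at the adult end, while most genes lie between 1 and 3.

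The calcium pump SERCA (LOC114355024), which refills the store that triggers contraction, was higher in the adult, with 1261, 2835 and 2585 FPKM in the larva and 4863, 5649 and 7959 FPKM in the adult and a difference of -1.52 (SE 0.37, limma adjusted p = 0.0106). Arginine kinase (LOC114366204), which buffers ATP in insect muscle, had 2459, 7465 and 7017 FPKM in the larva and 4193, 3180.2 and 4814 FPKM in the adult. The ranges overlapped, and the difference was 0.33 (SE 0.46, limma adjusted p = 0.559).

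Few respiratory chain genes were called. Among 93 tested respiratory chain and ATP synthase subunits 10 were called higher in the larva and 2 higher in the adult, with a median of 0.10 that changed sign under 4 of 15 settings, and the adult count was 1 without larval replicate 1, adult replicate 2 or adult replicate 3. The lipid-binding subunit of ATP synthase (LOC114353963) had 1335, 3032 and 2685 FPKM in the larva and 1498, 2056 and 3018 FPKM in the adult, and cytochrome c oxidase subunit 5A (LOC114357131) had a difference of 0.18. The largest difference was in a succinate dehydrogenase flavoprotein subunit (LOC114352556), with 21.8, 36.1 and 30.5 FPKM in the larva and 4.08, 1.40 and 1.17 FPKM in the adult, 3.33 (SE 0.38, limma adjusted p = 0.000428). A second model of that subunit (LOC114354984, chosen after its values were seen) was not called at 0.10. Copies of one name can share fragments, so values of single copies are uncertain.

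Glycolysis and the glycerol phosphate shuttle had 8 larval and no adult calls among 21 tested (median 0.36). Phosphoglycerate mutase 1 (LOC114365332) had 229, 691 and 703 FPKM in the larva and 122, 125 and 115 FPKM in the adult, with a difference of 1.99 (SE 0.43, limma adjusted p = 0.00616). Glucose-6-phosphate isomerase-like (LOC114358731) had 14.4, 42.2 and 41.2 FPKM in the larva and 1.70, 0.718 and 0 FPKM in the adult and a difference of 4.19 (SE 0.52, limma adjusted p = 0.000602). The larval count fell to 4 without larval replicate 2 or adult replicate 1 and to 5 without larval replicate 3 or adult replicate 3. In fatty acid oxidation 5 of 24 tested members were larval and 3 adult (median 0.19), and 3 were larval without larval replicate 2. Very long-chain specific acyl-CoA dehydrogenase (LOC114364297), the first step of burning long fatty acids, had 59.6, 93.1 and 89.3 FPKM in the larva and 196, 271 and 392 FPKM in the adult and a difference of -1.78 (SE 0.30, limma adjusted p = 0.00227).

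The called egg and yolk genes were adult. Vitellogenin-like (LOC114353046), the yolk precursor, had 0.173, 0 and 0.0895 FPKM in the larva and 714, 417 and 404 FPKM in the adult, a difference of -8.83 (SE 0.26, limma adjusted p = 1.99e-06). Vitelline membrane protein 15a-2-like (LOC114354057), of the inner eggshell, had 0, 0.406 and 0 FPKM in the larva and 2566, 1465 and 1868 FPKM in the adult, a difference of -10.74 (SE 0.26, limma adjusted p = 1.28e-06). The putative vitellogenin receptor (LOC114364367, chosen after its values were seen), which takes yolk into the oocyte, had 0.0872, 0.395 and 0.427 FPKM in the larva and 20.6, 18.6 and 13.2 FPKM in the adult. These 3 are the adult calls among the 4 tested of 19 list members, and all 3 met the filter through the adult alone.

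The outer eggshell did not pass the filter, because adult replicate 3 nearly lacked it. In adult replicates 1 and 2, 10 chorion models reached 29.6 to 272 and 24.7 to 299 FPKM, while the highest value in adult replicate 3 was 0.123 FPKM and the larval pools held 0, 4 and 1 fragments of them. Without adult replicate 3, 15 list members were called higher in the adult instead of 3. That fit also tested models that reached 1 FPKM in only 2 of the libraries left, as these chorion models did. The same pools separated a fibroin heavy chain-like model (LOC114360623), with 158, 209 and 0 FPKM in the adult, and follicle cell protein 3C-1 (LOC114364161), with 29.0, 9.64 and 0.276 FPKM, both picked out after their values were seen. Vitellogenin, the vitelline membrane gene and the receptor were present in all 3 adult pools. Across all gene models with both passing libraries from the adult, 33 with a mean of at least 10 FPKM in 2 pools were under 1 FPKM in adult replicate 3, against 6 and 10 for adult replicates 2 and 1. The 33 include the 10 chorion models. At any level the counts were 139, 102 and 151 for adult replicates 3, 2 and 1, so replicate 3 stood out among the higher genes only.

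**Figure D5:**
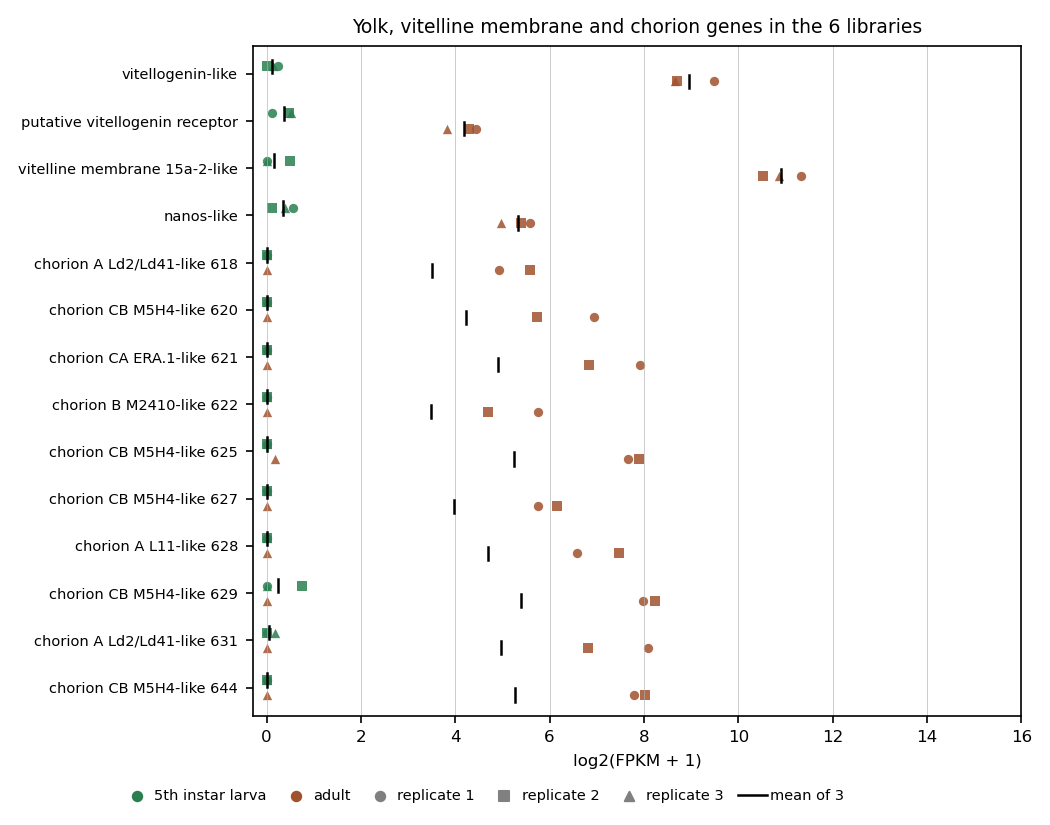
Levels of yolk, vitelline membrane, nanos-like and chorion genes as log2(FPKM + 1) in each library, with green for the larva, brown for the adult, a symbol for each replicate and a bar at the mean of the 3 log2 values. In the upper 4 genes all adult pools are above all larval pools. In the chorion genes adult replicate 3 lies with the larva, at most at 0.123 FPKM, and adult replicates 1 and 2 lie at 24.7 FPKM or more.

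Germline genes moved less. Of 11 tested 2 were called higher in the larva and 4 higher in the adult (median -0.40). The filter was met by 2 through the larva alone and by 1 through the adult alone. Nanos-like (LOC114357926), a translational repressor of germ cells, had 0.462, 0.0826 and 0.311 FPKM in the larva and 47.3, 41.2 and 30.2 FPKM in the adult, a difference of -4.97 (SE 0.26, limma adjusted p = 1.53e-05), and vasa (LOC114357405), an RNA helicase of germ cells, had 15.8, 15.6 and 14.9 FPKM in the larva and 76.9, 65.8 and 38.9 FPKM in the adult, a difference of -1.85 (SE 0.27, limma adjusted p = 0.00121). Piwi-like protein Siwi (LOC114355476), which carries small RNAs against transposons, overlapped between stages at a difference of -0.17. Sperm flagellum and axoneme genes, expressed in testes that already form in the larva of moths, had 4 larval and 7 adult calls among 52 tested (median -0.29), with 2 larval calls without larval replicate 2 and 4 adult calls without larval replicate 3. Of these 52, 5 met the filter through the larva alone and 3 through the adult alone. Sperm-specific protein Don juan (LOC114360061), of Drosophila sperm tails, had 23.7, 20.4 and 16.8 FPKM in the larva and 51.5, 56.8 and 94.9 FPKM in the adult, a difference of -1.65 (SE 0.27, limma adjusted p = 0.00207).

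DNA replication and cell division genes leaned to the adult. Of 62 tested 3 were called higher in the larva and 30 higher in the adult, the median was -0.92, and no member met the filter through 1 stage alone. G2/mitotic-specific cyclin-B (LOC114349851), which drives entry into mitosis, had 5.72, 4.26 and 6.60 FPKM in the larva and 119, 125 and 80.8 FPKM in the adult, a difference of -4.06 (SE 0.25, limma adjusted p = 3.43e-05). The early embryo held 491 ± 112 FPKM. Large-subunit DNA primase (LOC114355868), MCM4 (LOC114358196) and Mcm7 (LOC114355733), parts of the machinery that starts replication, were picked out after their values were seen and lay at -2.93, -1.70 and -1.52. Adult replicate 3 was the lowest adult pool for cyclin-B and for the list as a whole, with 0.104% of FPKM against 0.181% and 0.216%, and 0.0479% to 0.0838% in the larva. The larval side held the large subunit of ribonucleotide reductase (LOC114349888), at 1.48, and 5 members were called there without larval replicate 1. Proliferating cell nuclear antigen (LOC114363354) was not called, with 43.4, 40.5 and 46.6 FPKM in the larva and 79.4, 112 and 37.2 FPKM in the adult, and was called higher in the adult without adult replicate 3.

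Some histone genes were seen in the adult and not in the larva. The libraries were poly(A)-selected, so histone RNA without a poly(A) tail would be missed in either stage. Late histone H2B.L4-like (LOC114362285) had 0, 0 and 0 FPKM in the larva and 2307, 1887 and 1209.8 FPKM in the adult and 1415 ± 394 FPKM in the embryo. No larval fragment was seen, and the adult level was at least 4475-fold higher. Histone H1.1, embryonic-like (LOC114353798) had 0, 0 and 0 FPKM in the larva and 910.3, 1572 and 1024 FPKM in the adult, at least 4682-fold higher, and 775 ± 215 FPKM in the embryo. Both genes met the filter through the adult alone, so they had to differ. Of 14 tested histone models 7 (50.0%) were called higher in the adult and none higher in the larva. Of all models tested, 20.3% were called higher in the adult and 24.7% higher in the larva.

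Adult extremes also included proteins of simple composition without a known role. The models named here met the filter through the adult alone, so they had to differ. The largest difference of all was in an uncharacterized PE-PGRS family protein PE_PGRS54-like (LOC114365810, outside the naming rule), with 0, 0.0187 and 0 FPKM in the larva and 4603, 3422 and 6127 FPKM in the adult, -12.15 (SE 0.24, limma adjusted p = 7.48e-07). With 1 larval fragment, the ratio of adult to larva was 757352, with a Poisson interval of 135930 to 29913800. Next to it, glycine, alanine and asparagine-rich protein-like (LOC114365811; NW_021137891.1, 27375 to 30369) had 0, 0 and 0.145 FPKM in the larva and 2604, 2722 and 3469 FPKM in the adult, a difference of -11.44 (SE 0.19, limma adjusted p = 3.71e-07), and in none of the other stages and tissues did its mean exceed 0.0519 FPKM. Vegetative cell wall protein gp1-like (LOC114353613), named after an algal protein, had 0.161, 0 and 0 FPKM in the larva and 2767, 2370.4 and 2076 FPKM in the adult, with 3 larval fragments and a ratio of adult to larva of 44692 (Poisson interval 15293 to 216713). Its mean was at most 0.179 FPKM in the other stages and tissues.

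Sensory genes followed. Odorant-binding and chemosensory proteins, small carriers of odors and other ligands, had 19 of 32 members tested, 5 higher in the larva and 10 higher in the adult (median -1.68), and 2 met the filter through the larva alone and 6 through the adult alone. Putative odorant-binding protein A10 (LOC114363432) had 2.03, 2.49 and 1.99 FPKM in the larva and 860.1, 1529 and 1726 FPKM in the adult, a difference of -8.70 (SE 0.28, limma adjusted p = 2.66e-06). A pheromone-binding protein-like gene (LOC114363557, chosen after its values were seen) had 0.411, 0 and 0 FPKM in the larva and 12.1, 112 and 37.3 FPKM in the adult. Adult replicate 1 was the lowest adult pool here, and the same order was seen in general odorant-binding protein 83a-like (LOC114349856, also chosen after its values were seen), at 9.33, 80.1 and 38.3 FPKM in the adult and no fragment in the larva. On the larval side, allergen Tha p 1-like (LOC114354751), of the chemosensory protein family, had 367, 122 and 317 FPKM in the larva and 0, 0.244 and 0 FPKM in the adult, and ejaculatory bulb-specific protein 3-like (LOC114363416), of the same family, had 612, 2954 and 1985 FPKM in the larva and 14.3, 19.7 and 40.7 FPKM in the adult, a difference of 6.02 (SE 0.62, limma adjusted p = 0.000305). The 3rd instar silk gland held 1084 ± 1500.4 FPKM of the former.

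Receptors were too low to compare in whole animals, as 5 of 75 members were tested. Odorant receptor 22b-like (LOC114365317) and ionotropic receptor 25a (LOC114366750), a broadly used coreceptor in insects, were called higher in the adult at -1.48 and -1.36, and the latter had 1.07, 0.604 and 0.972 FPKM in the larva and 3.02, 3.74 and 4.77 FPKM in the adult. The odorant receptor coreceptor was listed at 0 in 5 of the 6 libraries and at 0.0328 FPKM in adult replicate 2. None was called higher in the larva, against 1 without larval replicate 1, adult replicate 1 or adult replicate 2 and 2 without adult replicate 3.

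Opsins and phototransduction genes had 5 larval and 7 adult calls among 18 tested (median -0.72). The filter was met by 2 through the larva alone and by 4 through the adult alone, and those had to differ. Opsin-1 (LOC114358718), a visual pigment of the compound eye, had 0.568, 1.62 and 1.48 FPKM in the larva and 191, 974 and 1090.4 FPKM in the adult, a difference of -8.09 (SE 0.65, limma adjusted p = 0.000111). Arrestin homolog (LOC114360878), which shuts off the pigment, had 1.76, 13.6 and 1.83 FPKM in the larva and 29.7, 157 and 249 FPKM in the adult, a difference of -4.46 (SE 0.92, limma adjusted p = 0.00525). In both, adult replicate 1 was the lowest adult pool, as in the odorant-binding genes. An opsin-1-like gene (LOC114361770, chosen after its values were seen) was larval, with 2.56, 16.6 and 4.42 FPKM in the larva and 0, 0.107 and 0 FPKM in the adult, and the 1st instar held 44.4 ± 7.10 FPKM.

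Desaturases, elongases and reductases of fatty acids, a family that also makes the sex pheromone of moths, had 18 larval and 5 adult calls among 39 tested (median 0.97). Of these 39, 5 met the filter through the larva alone and 4 through the adult alone, and those had to differ. Acyl-CoA Delta(11) desaturase-like LOC114363234 had 38.1, 72.8 and 231 FPKM in the larva and 0.19, 0.639 and 1.04 FPKM in the adult, a difference of 5.79 (SE 0.61, limma adjusted p = 0.000334), and another of that name, LOC114360176, had 0.578, 0.22 and 0.17 FPKM in the larva and 8.36, 11.4 and 12.5 FPKM in the adult, a difference of -3.15 (SE 0.25, limma adjusted p = 0.000105). Of 7 tested models of this name 4 were called higher in the larva and 3 higher in the adult. Neuropeptides had 5 larval and 6 adult calls among 24 tested, and their median of -0.07 changed sign under 4 of 15 settings. Of these 24, 3 met the filter through the larva alone and 2 through the adult alone. Neuropeptide-like 3 (LOC114357714) had 0, 0.512 and 0 FPKM in the larva and 308, 598 and 244 FPKM in the adult, with 3 larval fragments and a ratio of 2248 (Poisson interval 769 to 10899). Neuropeptide-like 4 (LOC114357694) had 581, 2099.6 and 1400.1 FPKM in the larva and 288, 182 and 329 FPKM in the adult, a difference of 2.21 (SE 0.48, limma adjusted p = 0.00637). Bombyxin B-9-like (LOC114353597), an insulin-like hormone, had 56.7, 42.9 and 56.4 FPKM in the larva and 361, 247 and 536 FPKM in the adult, a difference of -2.79 (SE 0.30, limma adjusted p = 0.000352).

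Hormone genes were called in both directions. Of 22 tested genes of ecdysone, the molting hormone, and juvenile hormone, which keeps the larval form and acts on reproduction in the adult, 9 were called higher in the larva and 4 higher in the adult (median 0.53), and 5 met the filter through the larva alone. Ecdysone receptor (LOC114360304) had 33.5, 21.5 and 24.5 FPKM in the larva and 6.96, 6.18 and 8.93 FPKM in the adult, a difference of 1.71 (SE 0.24, limma adjusted p = 0.00107). Broad-complex (LOC114361455), an ecdysone-induced regulator of the pupal program, had 9.65, 4.24 and 6.93 FPKM in the larva and 0.0448, 0.147 and 0.123 FPKM in the adult, a difference of 2.79 (SE 0.29, limma adjusted p = 0.000306). The adult side held ecdysone-induced protein 78C-like (LOC114359275), a nuclear receptor, with 1.17, 0.267 and 0.866 FPKM in the larva and 187, 151 and 99.6 FPKM in the adult, a difference of -6.37 (SE 0.31, limma adjusted p = 1.30e-05). It also held Krueppel homolog 1-like (LOC114359886), a target of juvenile hormone, with 8.41, 0.271 and 1.07 FPKM in the larva and 30.2, 30.0 and 44.6 FPKM in the adult and larval replicate 1 above the other larval pools. Juvenile hormone acid O-methyltransferase (LOC114365517), which completes the hormone, was higher in the adult at -2.23. Its adult mean was 7.10 FPKM, while 3rd instar silk glands held 476 ± 144 FPKM. Among the epoxide hydrolases that break down juvenile hormone, LOC114359902 was adult at -5.54 and LOC114360143 larval at 3.16. The receptor, broad-complex, Krueppel homolog, methyltransferase and LOC114359902 were picked out after their values were seen.

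Takeout-like proteins, carriers related to juvenile hormone-binding proteins, had 6 calls in each direction among 20 tested (median -0.41). The filter was met by 1 through the larva alone and by 2 through the adult alone. Takeout-like LOC114363181 had 219, 1716 and 1515 FPKM in the larva and 11.5, 7.26 and 7.66 FPKM in the adult, a difference of 6.43 (SE 0.75, limma adjusted p = 0.000471), with larval replicate 1 well below the others. Takeout-like LOC114350704 had 0.418, 4.58 and 3.89 FPKM in the larva and 54.0, 191 and 97.1 FPKM in the adult, a difference of -4.90 (SE 0.63, limma adjusted p = 0.000734).

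Of 57 tested immune genes 19 were called higher in the larva, 2 higher in the adult and 36 in neither (median 1.13), and the adult count was 0 without larval replicate 2, adult replicate 1 or adult replicate 3 and 1 without larval replicate 3. The filter was met through the larva alone by 3 of the 57. Phenoloxidase-activating factor 2-like (LOC114353861), of the melanization cascade, had 90.9, 170.3 and 190.3 FPKM in the larva and 13.1, 0.0785 and 0.67 FPKM in the adult, a difference of 5.62 (SE 0.91, limma adjusted p = 0.00183). Hemolin-like (LOC114351522), an immunoglobulin protein of moth blood, had 2071, 2623 and 1531 FPKM in the larva and 379, 372 and 644 FPKM in the adult, a difference of 2.17 (SE 0.31, limma adjusted p = 0.00104), and beta-1,3-glucan-binding protein 1 (LOC114366674), which recognizes fungal walls, had 1225, 921 and 1116 FPKM in the larva and 565, 179 and 256 FPKM in the adult. A cecropin-D-like peptide (LOC114365127, chosen after its values were seen), which lyses bacteria, had 737, 341 and 72.5 FPKM in the larva and 18.2, 12.6 and 19.8 FPKM in the adult, and the larval pools were spread widely. The share of the list was 1.62%, 0.703% and 0.515% of FPKM in the larva and 0.267% to 0.365% in the adult.

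Heat shock proteins had 5 larval and 2 adult calls among 19 tested (median 0.53), and 1 met the filter through the larva alone and 1 through the adult alone. The most abundant chaperone, heat shock 70 kDa protein cognate 4 (LOC114359959), had 2343, 2267 and 2629 FPKM in the larva and 1830.2, 2053 and 2686 FPKM in the adult and was not called. The mitochondrial cognate 5 (LOC114358993) had 11.2, 13.9 and 12.8 FPKM in the larva and 0.683, 0.305 and 0.535 FPKM in the adult, a difference of 3.18 (SE 0.22, limma adjusted p = 5.97e-05). Cytosolic ribosomal proteins were the list that moved least: of 74 tested none was called higher in the larva and 1 higher in the adult, 60S ribosomal protein L6-like (LOC114353064), at -1.33. That call was lost under 7 of 15 settings, among them the removal of larval replicate 2 or 3 or of any adult replicate. The list's median was 0.09, and its share of all FPKM was 13.0% to 20.8% in the larva and 17.4% to 17.9% in the adult. Ribosomal protein P1 (LOC114363294) had 2912, 2896 and 3443 FPKM in the larva and 4056, 3564 and 4564 FPKM in the adult, a difference of -0.39 (SE 0.22, limma adjusted p = 0.16).

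The other stages of the series give a further readout of the called genes, as a description. Among larva-high genes with a mean of at least 1 FPKM in another stage, 34.3% had their highest other mean in the 3rd instar, against 24.9% of all tested gene models, and among adult-high genes 43.6% had it in the embryo, against 31.5%. Under scaling by recovered totals these shares became 19.0% against 9.26% and 60.8% against 47.1%. A total of 1211 larva-high gene models were under 1 FPKM in every adult library and 93 of them had no adult fragment, while 673 adult-high gene models were under 1 FPKM in every larval library and 253 had no larval fragment.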

How the data were processed

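RNA was poly(A)-selected from whole wild-type insects and sequenced in pairs. The authors trimmed the reads with fastp, mapped them with HISAT2 (2.0.5 in the submitters' processing notes) to the genome assembly ASM419383v1 and named RSEM for quantification. The deposited FPKM values carry no unit in the header. Each value times the gene length was a whole multiple of 1 amount per library, within a tolerance of 0.02 in 100% of values under 200 fragments, so fragments could be recovered, and the values include a scaling between libraries by the authors. The deposited gene length was used as given, and no sequences were used here.

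Gene models that reached 1 FPKM in 3 or more of the 6 libraries were tested with limma 3.58.1 (limma-trend, R 4.3.3) on log2(FPKM + 1), with the 3 larval against the 3 adult libraries. A call needed a difference of 1 or more in either direction, with p adjusted by Benjamini-Hochberg below 0.05. Tables and figures used Python 3.11.15, numpy 2.4.6, pandas 2.3.3, scipy 1.17.1 and matplotlib 3.10.9. Recovered depth was 14330440 to 17083478 fragments per library. Intervals and floors (3 fragments per library) cover counting error only. Among 200 simulated changed gene models of 11993, 17 of 67 with a fold of 2, 67 of 67 with a fold of 4 and 66 of 66 with a fold of 8 were called, and 8 of 11793 unchanged ones were. The simulation used 1 dispersion of 0.0842 for all gene models, and it changed a far smaller share of them than was called in the data.

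The comparison, its gene lists and the genes outside the naming rule were chosen with earlier results of these data known. Among tested models whose description names a protein, leaving out uncharacterized and blank ones, the rule named the 5 genes per direction with the largest difference, the 5 per stage with the highest mean, and in each of 34 lists the called member with the largest difference per direction and the 2 members with the highest mean, which gave 123 genes. Another 39, and single list members marked in the text, were chosen after their values were seen. Lists are described by counts and medians, without a test. Of 17284 annotated gene IDs 17153 matched RefSeq names of assembly ASM419383v2. The alternatives were another pseudocount, no filter, other scalings, limma-voom on recovered fragments, a fit of all stages, a replicate block, no fold limit and the removal of each library. With a library removed, the filter was 1 FPKM in at least 2 of the libraries left.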

Additional observations from a re-analysis of the deposited data

How the results depend on the processing

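Across 15 settings no gene model was called in the opposite direction. The number called higher in the larva lay between 2678 and 3658 and the number called higher in the adult between 2351 and 3219, and leaving out each library gave 2833 to 3197 and 2351 to 2544. The fits with a library left out tested 12681 to 12879 gene models, since 2 of the libraries left had to reach 1 FPKM. Without a fold limit 3658 and 3219 were called, without the filter 3037 and 2471 of 18875 tested, with a pseudocount of 0.1 3309 and 2661, and 2971 and 2470 when the libraries of all stages shared 1 fit. Scaling by recovered totals gave 2678 and 2770 and moved the median of all gene models from 0.06 to -0.08, medians of ratios gave 2777 and 2556 at a median of 0.00, and limma-voom on recovered fragments gave 2915 and 2931 at a median of -0.10. Limma-voom with medians of ratios, chosen after seeing the data, gave 3128 and 2791.

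Samples with the same replicate number did not deviate together, with correlations of -0.0254, -0.0227 and -0.0288, so the numbers do not pair the samples. With a replicate block 2957 and 2429 were called, of which 2909 and 2398 were also called without it.

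Of the list counts 58 moved by over 1.5 times and 962 did not. Among values of the named genes 2364 kept their side of the threshold, 50 lost the call and 16 gained it, and the causes were not tested. Without a fold limit the larval count in V-type ATPase subunits rose from 4 to 8, in DNA replication from 3 to 7 and in ribosomal proteins from 0 to 6. The adult count of sugar transporters was 7 under recovered totals and limma-voom in place of 4, that of fatty acid oxidation 5 in place of 3, and that of sperm genes 12 under limma-voom in place of 7. The number of lists whose share of FPKM did not overlap between the stages lay between 11 and 14 for the larva and between 8 and 14 for the adult. Pools of 6 insects in 3 libraries per stage limit all comparisons. In the simulation a 2-fold change was called in 17 of 67 gene models, at a median estimate of 0.91 that lies under the fold limit of 1. That count therefore does not measure the limit set by the number of pools.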

Other observations

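Some of the largest adult differences lay in gene models without a protein name. On scaffold NW_021133043.1, from 643811 to 667500, 5 adjacent tested models were all called higher in the adult, with log2 fold changes from -11.86 to -6.80, and most of them carry no protein name. On NW_021137891.1, from 18569 to 53754, 5 adjacent models, PE_PGRS54-like and the glycine, alanine and asparagine-rich protein among them, lay between -12.15 and -6.22.

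Runs of at least 5 adjacent tested gene models called in the same direction were found at 36 places of the assembly ASM419383v1, and several held members of 1 family. As 44.9% of all tested models were called, some runs would arise in any order, and their number was not worked out. Among 2227 neighbouring pairs with both models called, 61.5% went the same way, against 50.5% given by the shares of the 2 directions. On NW_021136486.1, from 20206 to 74699, 7 cuticle protein models were called higher in the adult, between -7.13 and -2.40. On NW_021134344.1, from 452155 to 530397, 4 larval cuticle protein models and a leucine-rich repeat protein were called higher in the larva, between 1.99 and 12.05. On NW_021130933.1, from 1725086 to 1784096, 7 models, lipases among them, were called higher in the larva, between 1.48 and 5.89. On NW_021135154.1, from 854672 to 887938, 8 models that included zerknuellt 1-like genes, named after a homeobox regulator of early fly embryos, and Hox-D4a-like were called higher in the adult, between -5.36 and -1.19. Neighbours in such runs can share fragments where their sequences are alike.

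Some protein names covered both stages, and more had their calls in 1 stage alone. From the shares of the 2 directions alone, 2 called models would go the same way in 50.5% of pairs. Of 835 names carried by at least 2 tested gene models, 328 had at least 2 called models, and 127 of these had calls in both directions, 148 in the larva alone and 53 in the adult alone. Takeout-like had 2 larval and 3 adult calls among 9 models of that exact name, and troponin C-like 1 and 3 among 4.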
